A study of Mus musculus with 12 samples.

Results

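The genes described here are 35 members of the core autophagy machinery and its regulators, of 19937 genes measured under a single symbol. They were chosen by name, from a list of the proteins that build the autophagosome and of the factors that control them, and a gene with several probe sets is represented by the one with the highest average level. All 35 were found. The series compared orthotopic prostate tumours of the murine prostate carcinoma cells TRAMP-C2Re3 grown in p62 KO hosts with tumours of the same cells grown in wild-type hosts. Every host was a C57BL6 mouse that received 50000 cells in the prostate, and each tumour was taken after 60 days and hybridised to 1 single-colour array. There were 6 tumours per host genotype, each from its own mouse. Host age, and which exons the knockout lacks, are not given in the sources used here. All 12 tumours share the injected cells, which carry their own p62 gene, Sqstm1, so that p62 was missing from host cells alone. The comparison asks whether tumours grown in hosts without this autophagy adaptor differ in the RNA of the autophagy machinery.

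Autophagy encloses cytoplasm in a double membrane, the autophagosome, and delivers it to the lysosome. The ULK1 kinase complex starts the process, a class III PI3 kinase complex built on Beclin 1 marks the nucleation site with phosphatidylinositol 3-phosphate, and lipid transfer proteins and ATG9 vesicles feed the growing membrane. A pair of ubiquitin-like conjugation systems then attaches LC3 and GABARAP proteins to the membrane lipid, SNARE proteins and tethers fuse the closed vesicle with the lysosome, and the transcription factors TFEB and TFE3 control many of the genes. The receptor p62 binds LC3 and ubiquitylated cargo and is itself degraded with it. Much of the control of this pathway lies in phosphorylation and lipidation of proteins, which an RNA array does not read.

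The DNA motif that TFEB and TFE3 recognise is centred on the E-box CACGTG, and the members whose promoters hold it are shown first, because the comparison ends with these factors. RefSeq promoter windows on the mouse build GRCm38.p6, from 250 bases before to 50 after a transcription start, were at hand for 28 of the 35 members. CACGTG, which reads the same on both strands, was found in windows of 4 of these 28 genes (14.3%), against 8.09% of the 27025 genes in the table. The longer palindrome TCACGTGA, which contains the same 6 letters, was found in 1 of the 28 genes, Atg3, and in 1.12% of all genes. The stretches below run 5′ to 3′ on the gene's strand with up to 60 bases on either side, and capitals mark CACGTG.
Atg14 (chr14:47568385-47568495, minus strand): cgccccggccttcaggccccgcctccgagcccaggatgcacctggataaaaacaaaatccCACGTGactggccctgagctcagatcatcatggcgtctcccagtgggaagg
Atg3 (chr16:45158675-45158823, plus strand): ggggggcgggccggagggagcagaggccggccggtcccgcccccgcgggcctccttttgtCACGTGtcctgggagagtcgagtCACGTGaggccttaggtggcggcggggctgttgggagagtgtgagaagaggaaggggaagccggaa
Atg5 (chr10:44268265-44268388, plus strand): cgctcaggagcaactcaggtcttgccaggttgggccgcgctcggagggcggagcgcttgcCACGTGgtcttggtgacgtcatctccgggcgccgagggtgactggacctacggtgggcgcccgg
Atg7 (chr6:114670904-114671029, plus strand): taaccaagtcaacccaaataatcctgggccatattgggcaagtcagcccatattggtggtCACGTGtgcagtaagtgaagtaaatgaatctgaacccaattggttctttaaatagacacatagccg
The match began 1 base before the transcription start in Atg14, 14 bases before it in Atg5 and 132 bases before it in Atg7, while Atg3 held matches beginning 94 and 71 bases before it. A match is a run of letters and was not tested as a binding site here.

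The arrays held 28192 tested probe sets as log2 intensities, with pairwise correlations between 0.935 and 0.991. Tumours KO2 and KO3 had the narrowest interquartile ranges of array values (2.26 and 2.15), followed by WT5 and WT2 (2.47 and 2.59), against 2.70 to 2.95 on the other 8 arrays, and the same 4 tumours had the highest scores on the first principal component. Results are therefore given with and without KO2 and KO3, although WT2 and WT5 then remain in the other group. Sqstm1 itself had a level of 8.73 ± 0.39 (SD, n = 6) in p62 KO hosts and 8.89 ± 0.23 (SD, n = 6) in wild-type hosts (exact two-sided permutation p = 0.42), which does not check the genotype, since the injected cells carry the gene and their RNA was not separated from that of the host. Over the 12 tumours the mean of the 6 epithelial markers lay between 5.81 and 6.39, near the array medians of 6.21 to 6.44. Krt8 had a median of 7.96 in p62 KO hosts and 8.14 in wild-type hosts, while Epcam (4.47 and 4.52) and the prostate secretory gene Pbsn (2.99 and 2.96) had medians below the arrays' lower quartiles of 4.85 to 5.36. Whether those values exceed background is unknown, because detection calls were not used here.

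None of the 35 autophagy genes passed the threshold of an adjusted p under 0.05 in either direction. The adjusted p-values lay between 0.9935 and 0.9995 (limma, two-sided, Benjamini-Hochberg over all 28192 probe sets, of which 0.00355% passed). At an unadjusted p under 0.05 there were 0 members as well, against 2.39% of all probe sets (1.28% higher and 1.11% lower), and the smallest unadjusted p of a member was 0.15. The groups overlapped in all 35 genes, as in all but 0.145% of all probe sets. The median difference of the members, p62 KO minus wild-type hosts, was -0.030 on the log2 scale, with 12 members higher and 23 lower, against a median of 0.024 over all tested probe sets, of which 57.2% were higher. The members' mean level was 7.18 to 7.64 in the 12 tumours, above the array medians of 6.21 to 6.44. Shares over all probe sets, here and below, are thus not matched for level. What part level has in such contrasts was not tested.

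The intervals say how large a difference the data still allow. All 35 of the 95% intervals held 0. In 28 members (80.0%) the interval stayed within a 1.5-fold change in either direction, as it did in 83.3% of all tested probe sets. The 7 genes whose intervals reached beyond 1.5-fold were Rb1cc1, Uvrag, Pik3c3, Atg4a, Atg4c, Atg5 and Stx17, in each case on the lower side. The widest interval spanned 1.23 log2 units and the narrowest 0.33. Without KO2 and KO3, the interval of Rb1cc1 still reached beyond 1.5-fold (-0.77 to 0.45). Those of Uvrag (-0.13 to 0.39), Pik3c3 (-0.12 to 0.43), Atg4a (-0.12 to 0.32), Atg4c, Atg5 (-0.09 to 0.41) and Stx17 (-0.21 to 0.28) then stayed within it. In that setting the intervals of Atg4c (0.015 to 0.49) and Atg2b (0.061 to 0.43) no longer held 0, and neither gene passed.

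**Figure D1:**
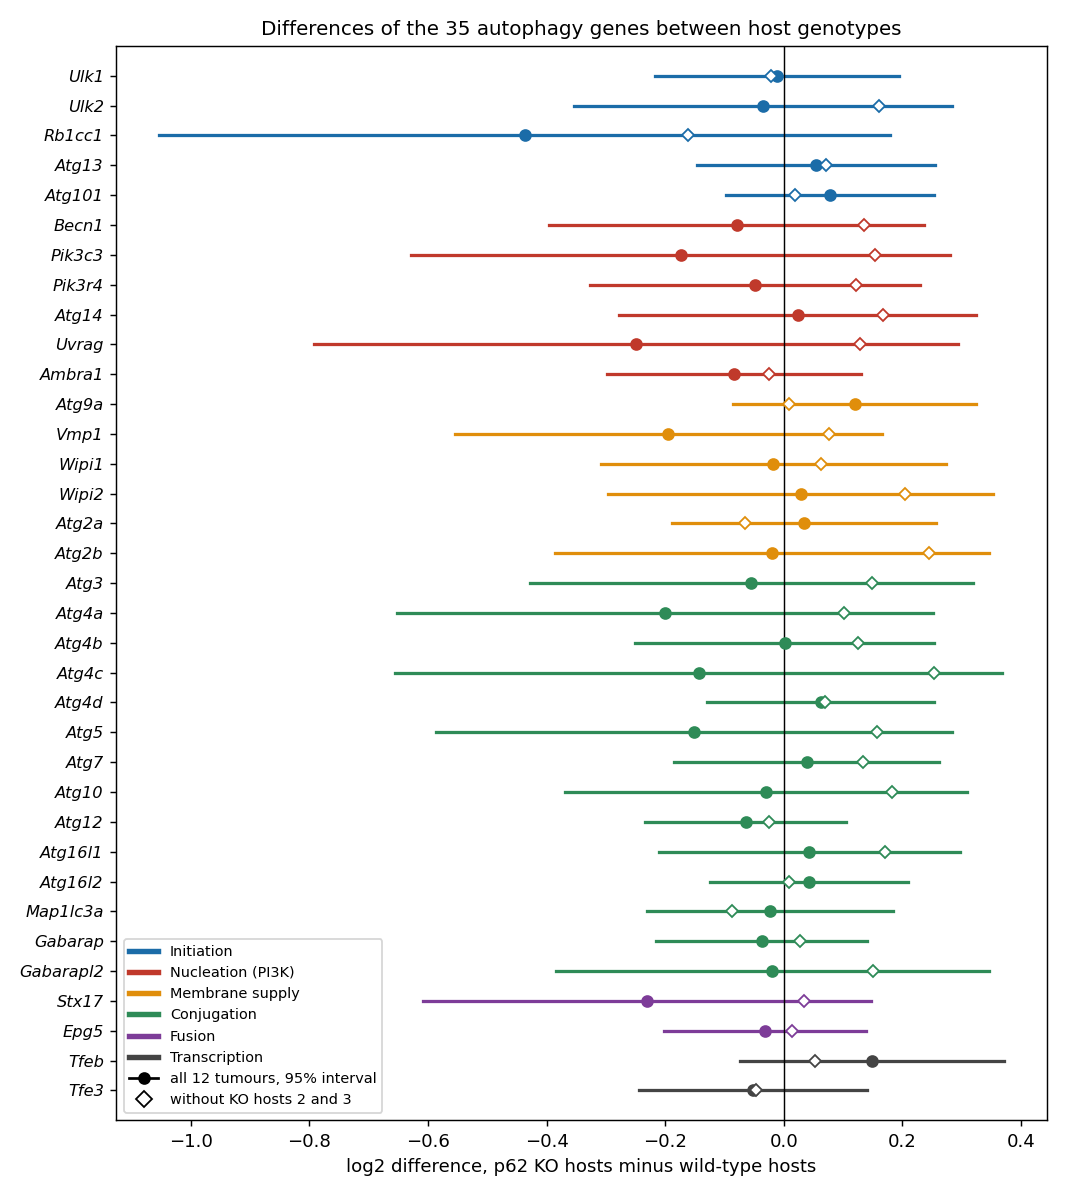
Log2 difference of each of the 35 genes between tumours of p62 KO and wild-type hosts (horizontal axis), ordered and coloured by step of autophagy; filled circles and bars are the difference over 12 tumours and its 95% interval, and open diamonds the difference without KO2 and KO3. All 35 intervals cross 0, and 28 diamonds lie above 0 against 12 filled circles.

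The initiation complex comprises the kinases ULK1 and ULK2, the scaffold FIP200 (Rb1cc1), ATG13 and its partner ATG101. Its 5 genes had a median difference of -0.011, with 2 higher and 3 lower. Ulk1 ran from 6.72 through a median of 6.93 to 7.14 in p62 KO hosts and from 6.82 through 6.95 to 7.04 in wild-type hosts. The groups overlapped throughout, and the difference was -0.01 (SE 0.10, 95% interval -0.22 to 0.20). Ulk2 differed by -0.03.

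Rb1cc1 had the smallest unadjusted p of all members. Its level was 7.62, 8.61 and 8.85 (lowest, median and highest) in p62 KO hosts and 8.51, 8.67 and 10.18 in wild-type hosts. The group medians thus lay 0.05 apart, while the means, 8.45 ± 0.48 and 8.89 ± 0.64 (SD, n = 6 each), differed by -0.44 (SE 0.29, 95% interval -1.05 to 0.18), or 1.35-fold. A single wild-type tumour, WT3, made the highest value and KO3 the lowest. Without KO2 and KO3 the difference was -0.16, and over the omission of each tumour in turn it ran from -0.52 to -0.18. Atg13 ran from 6.70 through 6.85 to 7.01 in p62 KO hosts and from 6.51 through 6.85 to 6.94 in wild-type hosts, a difference of 0.05 (SE 0.09). Atg101 ran from 6.65 through 6.86 to 7.02 against 6.70 through 6.76 to 6.83, a difference of 0.08 (SE 0.08). In Atg101, 5 of the 6 p62 KO tumours lay above the wild-type median, and the difference was 0.018 without KO2 and KO3.

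Nucleation rests on the lipid kinase VPS34 (Pik3c3), its regulatory subunit p150 (Pik3r4) and Beclin 1 (Becn1), joined by either ATG14 or UVRAG, with AMBRA1 as an activator of the complex. These 6 genes had a median difference of -0.082, with 5 lower and 1 higher, and 0 passed. Becn1 ran from 7.60 through a median of 8.28 to 8.38 in p62 KO hosts and from 7.95 through 8.21 to 8.44 in wild-type hosts. Its median was thus higher in p62 KO hosts while its mean difference was -0.08 (SE 0.15). Only KO2 and KO3, at 7.60 and 7.78, lay below the wild-type range, and without them the difference was 0.13 (adjusted p = 0.6861).

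The other subunits differed in how far KO2 and KO3 set their values. Pik3c3 ran from 8.11 through 9.01 to 9.36 against 8.71 through 8.98 to 9.29 and differed by -0.17 (SE 0.21), or 0.15 without KO2 and KO3. Uvrag ran from 7.63 through 9.07 to 9.40 against 8.75 through 9.19 to 9.26 and differed by -0.25 (SE 0.25), or 0.13 without them. KO3 held the lowest level of both genes, 7.63 in Uvrag, where KO2 followed at 8.54. Ambra1 ran from 7.20 through 7.58 to 7.67 against 7.42 through 7.57 to 7.81, a difference of -0.08 (SE 0.10) and of -0.026 without KO2 and KO3. Pik3r4 differed by -0.05 and Atg14 by 0.024, or by 0.12 and 0.17 without those tumours.

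Membrane supply is served by ATG9 (Atg9a), a multi-spanning protein of the vesicles that seed the membrane, the scramblase VMP1, the lipid transfer proteins ATG2A and ATG2B and the PI3P-binding WIPI1 and WIPI2. These genes belong to none of the steps the comparison was planned by and were set apart as a group of 6. Their median difference was 0.0054, with 3 higher and 3 lower. Atg9a ran from 7.29 through 7.38 to 7.76 in p62 KO hosts and from 7.20 through 7.35 to 7.43 in wild-type hosts, a difference of 0.12 (SE 0.10, 95% interval -0.08 to 0.32). KO2 and KO3 were its highest tumours, at 7.61 and 7.76, and without them the difference was 0.0083.

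Vmp1 was the reverse case. It ran from 8.83 through 9.69 to 9.79 in p62 KO hosts and from 9.46 through 9.69 to 9.77 in wild-type hosts, so that the medians nearly coincided. KO2 and KO3 stood at 9.03 and 8.83 while the other 4 tumours of p62 KO hosts lay between 9.68 and 9.79. The mean difference of -0.19 (SE 0.17) became 0.077 without those 2 tumours. Atg2a ran from 6.46 through 6.61 to 6.92 against 6.38 through 6.57 to 6.79, a difference of 0.03 (SE 0.10). Wipi1 differed by -0.018, Wipi2 by 0.028 and Atg2b by -0.020.

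Conjugation has the most members, 14 genes. ATG7 is the E1-like enzyme of both systems, ATG3 and ATG10 are the E2-like enzymes, ATG12 is joined to ATG5 and held by ATG16L1 or its relative ATG16L2, the ATG4 proteases trim and release the LC3 family, and Map1lc3a, Gabarap and Gabarapl2 encode 3 proteins of that family. The median difference was -0.027, with 5 higher and 9 lower, and 0 passed. Atg5 ran from 5.79 through 6.81 to 7.18 in p62 KO hosts and from 6.43 through 6.81 to 6.99 in wild-type hosts. Its medians were nearly equal, KO3 and KO2 were the lowest tumours, and the mean difference of -0.15 (SE 0.20) was 0.16 without them. Atg7 ran from 7.43 through 7.63 to 8.08 against 7.57 through 7.69 to 7.71, a difference of 0.04 (SE 0.10). Its highest and lowest levels were both in p62 KO hosts, KO6 and KO2.

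Atg4a ran from 6.29 through 7.49 to 7.79 against 7.28 through 7.56 to 7.70 and differed by -0.20 (SE 0.21), or by 0.10 without KO2 and KO3. Atg12 ran from 6.69 through 6.89 to 7.02 against 6.85 through 6.92 to 7.06, a difference of -0.06 (SE 0.08) and of -0.025 without those tumours. Map1lc3a, which encodes LC3A, ran from 6.69 through 6.92 to 7.14 against 6.74 through 6.94 to 7.08, a difference of -0.024 (SE 0.10). The groups of Map1lc3a covered almost the same range. Gabarap, an LC3 relative named for its binding to the GABA type A receptor, differed by -0.037 with an interval of -0.21 to 0.14. The remaining genes of this step lay between -0.14 for Atg4c and 0.06 for Atg4d. They were Atg3 at -0.05, Atg10 at -0.030, Gabarapl2 at -0.020, Atg4b at 0.0013, Atg16l1 at 0.04 and Atg16l2 at 0.04. The promoters with an E-box belonged to Atg14, Atg3, Atg5 and Atg7, whose differences were 0.024, -0.05, -0.15 and 0.04.

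**Figure D2:**
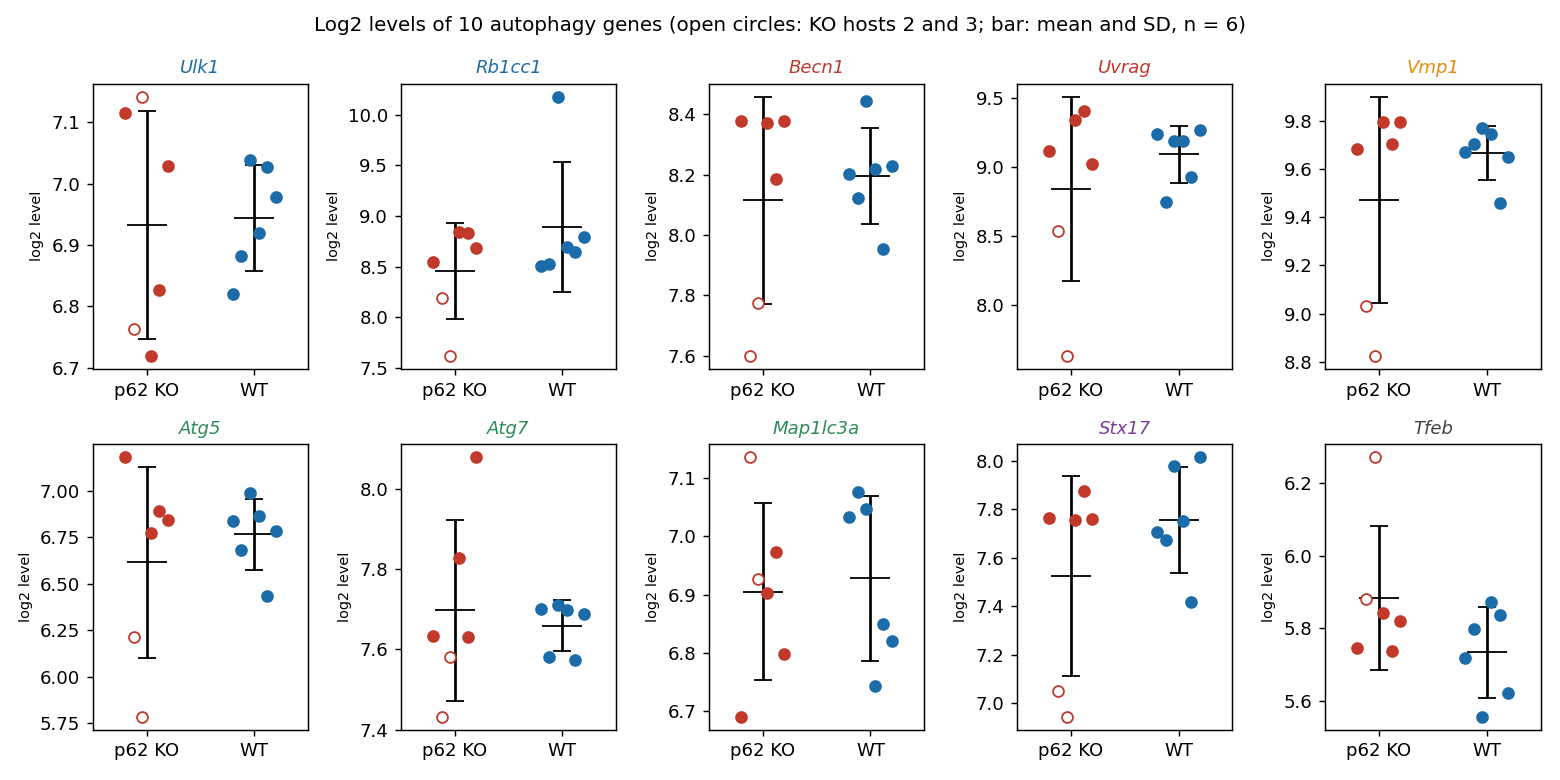
Log2 levels (vertical axis, a separate scale for each gene) of 10 of the genes in tumours of p62 KO hosts (red) and wild-type hosts (blue), with a point per tumour, the mean and the SD (n = 6 each); open circles are KO2 and KO3. In Becn1, Uvrag, Vmp1, Atg5 and Stx17 the open circles are the lowest tumours, and in Rb1cc1 WT3 stands alone at 10.18.

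Both genes of fusion had negative differences. Stx17, the SNARE of the closed autophagosome, ran from 6.94 through a median of 7.76 to 7.88 in p62 KO hosts and from 7.42 through 7.73 to 8.01 in wild-type hosts. The medians were in the opposite order to the means, whose difference was -0.23 (SE 0.18, 95% interval -0.61 to 0.15), and it was 0.034 without KO2 and KO3, at 7.05 and 6.94. Epg5, a tether between autophagosomes and late endosomes or lysosomes, ran from 6.87 through 7.12 to 7.25 against 7.07 through 7.13 to 7.20, a difference of -0.032 (SE 0.08).

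Of the transcription factors, Tfeb ran from 5.74 through 5.83 to 6.27 in p62 KO hosts and from 5.56 through 5.76 to 5.87 in wild-type hosts. Its difference of 0.15 (SE 0.10, 95% interval -0.07 to 0.37) was the highest of the 35. KO3 was the highest tumour at 6.27, followed by KO2 at 5.88, and without them the difference was 0.05. Tfe3 ran from 6.71 through 6.88 to 6.95 against 6.70 through 6.89 to 7.06, a difference of -0.05 (SE 0.09). Activity of these factors depends on their move to the nucleus, which RNA levels do not show.

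Among the 12 tumours, KO2 and KO3 held many of the members' extreme levels. KO2 or KO3 was the lowest of the 12 tumours in 23 of the 35 genes and the highest in 7, while over all tested probe sets these tumours were the lowest in 29.4% and the highest in 46.8%. The spread was larger in p62 KO hosts than in wild-type hosts in 31 members, against 80.4% of all probe sets, and in 10 members without KO2 and KO3, against 36.8%. In 11 members (31.4%) all 4 tumours with narrow arrays lay below all of the other 8, which held for 6.69% of all tested probe sets. These 11 included 5 of the 6 nucleation genes (Becn1, Pik3c3, Pik3r4, Atg14 and Uvrag), 5 conjugation genes (Atg4a, Atg4c, Atg5, Atg7 and Atg10) and Stx17, and 0 of the initiation, membrane and transcription genes. The 4 tumours were singled out by their array values, so these counts are a description, with no test, and what part array quality has in them was not tested.

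**Figure D3:**
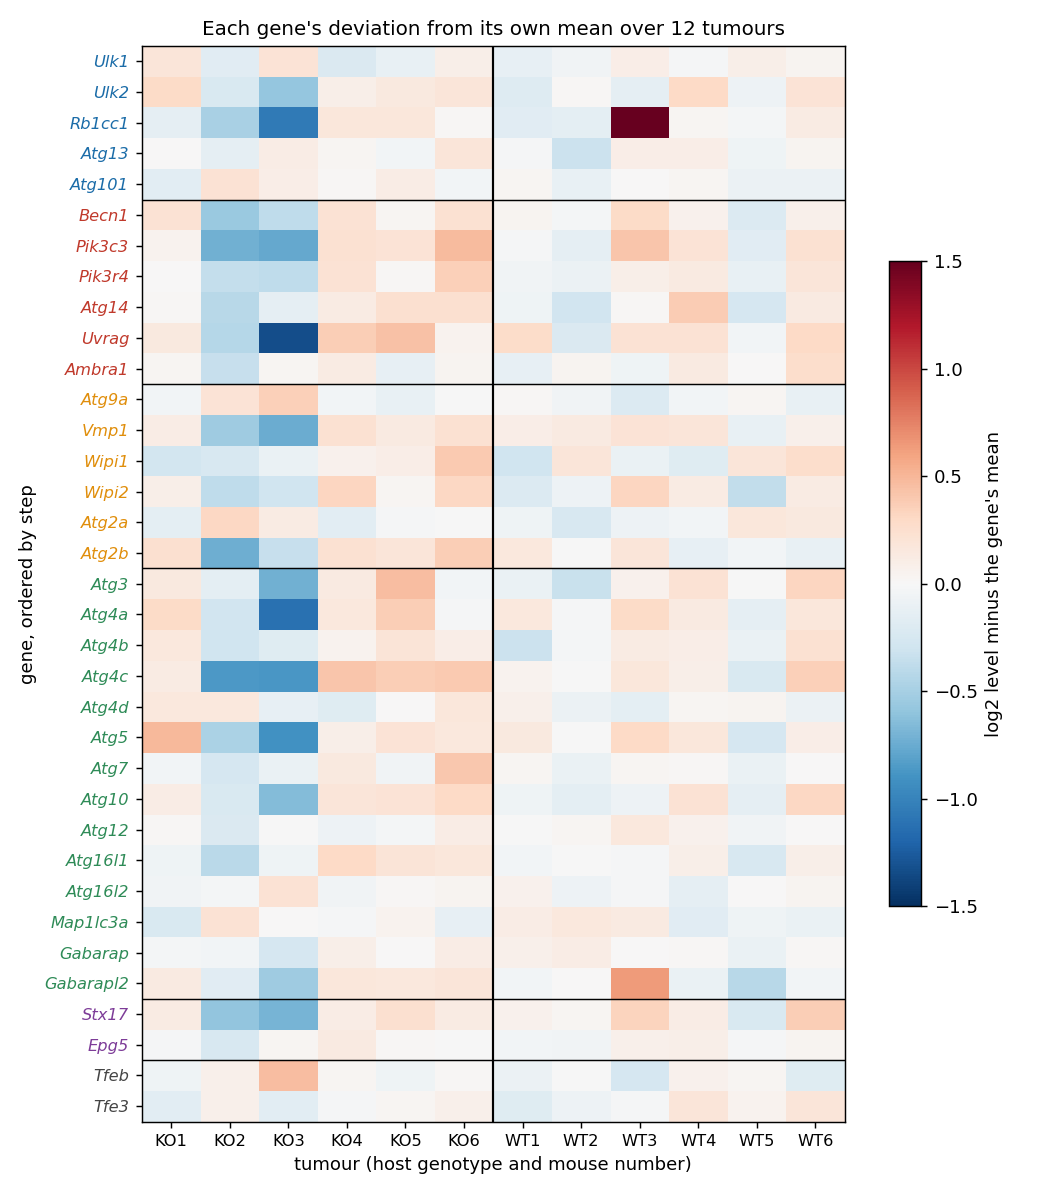
Deviation of each gene's log2 level from its own mean over the 12 tumours (colour), with tumours in columns, p62 KO hosts left of the vertical line, and genes in rows by step (names coloured by step). Columns KO2 and KO3 are mostly blue (below the mean), Tfeb and Atg9a are highest in KO3, and Rb1cc1 is highest in WT3.

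Without KO2 and KO3 the members' median difference was 0.077, with 28 higher and 7 lower, where 45.5% of all probe sets were higher. None passed (smallest adjusted p of a member 0.6381, and 0% of all probe sets). At an unadjusted p under 0.05 there were 2 members higher, Atg4c (a difference of 0.25) and Atg2b (0.24, both with an adjusted p of 0.6381), where 3.49% of all probe sets were higher at that level and 4.23% lower. With WT2 and WT5 left out as well, the median was 0.034, with 24 higher and 11 lower, where 47.9% of all probe sets were higher. Of the members, 1 (Atg2b, at 0.23) was then higher at an unadjusted p under 0.05 and 0 were lower, against 2.56% and 2.53% of all probe sets, and 0 passed. The direction of the members as a list therefore rests on KO2 and KO3. Leaving out either one alone already turned the median difference, to 0.013 without KO2 and 0.015 without KO3.

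Of the members, 3 have more than 1 probe set, and those of Gabarapl2 lay furthest apart in their differences. The probe set that stands for Gabarapl2 ran from 7.11 through 7.79 to 7.83 in p62 KO hosts and from 7.23 through 7.61 to 8.29 in wild-type hosts. The other one stood at 4.78, 5.32, 5.04, 4.53, 5.27 and 5.08 in KO1 to KO6 and at 5.38, 5.33, 5.49, 5.56, 5.36 and 5.78 in WT1 to WT6. Every tumour of a p62 KO host thus lay below every tumour of a wild-type host, by 0.013 between the nearest pair, KO2 and WT2. Its difference was -0.48 (SE 0.14, 95% interval -0.77 to -0.19), or 1.40-fold, and it did not pass (adjusted p = 0.9935). It was singled out after its values were seen, and it is 1 of the 41 probe sets of all 28192 (0.145%) whose groups did not overlap.

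The difference of this second Gabarapl2 probe set was -0.57 without KO2 and KO3 (adjusted p = 0.6025), and it lay between -0.54 and -0.39 over the omission of single tumours. Its levels lie at the low end of the arrays, whose lower quartiles were 4.85 to 5.36. The identifiers of the array follow chromosomes, and the 20 nearest identifiers with a gene all belong to genes on chromosome 8 for this second probe set, where RefSeq (GRCm38.p6) places Gabarapl2, against 18 of 20 on chromosome 5 for the brighter one. Whether the brighter probe set reads Gabarapl2 or a similar sequence elsewhere was not tested, so that the level of Gabarapl2 is uncertain. Atg4a is the converse case. The probe set that stands for it has all 20 neighbours on the X chromosome, its own, and its other one has 19 of 20 on chromosome 3. The probe sets of Atg4a differed by -0.20 and -0.22, but by 0.10 and -0.091 without KO2 and KO3, in opposite directions. Those of Atg2b, both on chromosome 12, differed by -0.020 and -0.07, and by 0.24 and 0.19 without KO2 and KO3.

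**Figure D4:**
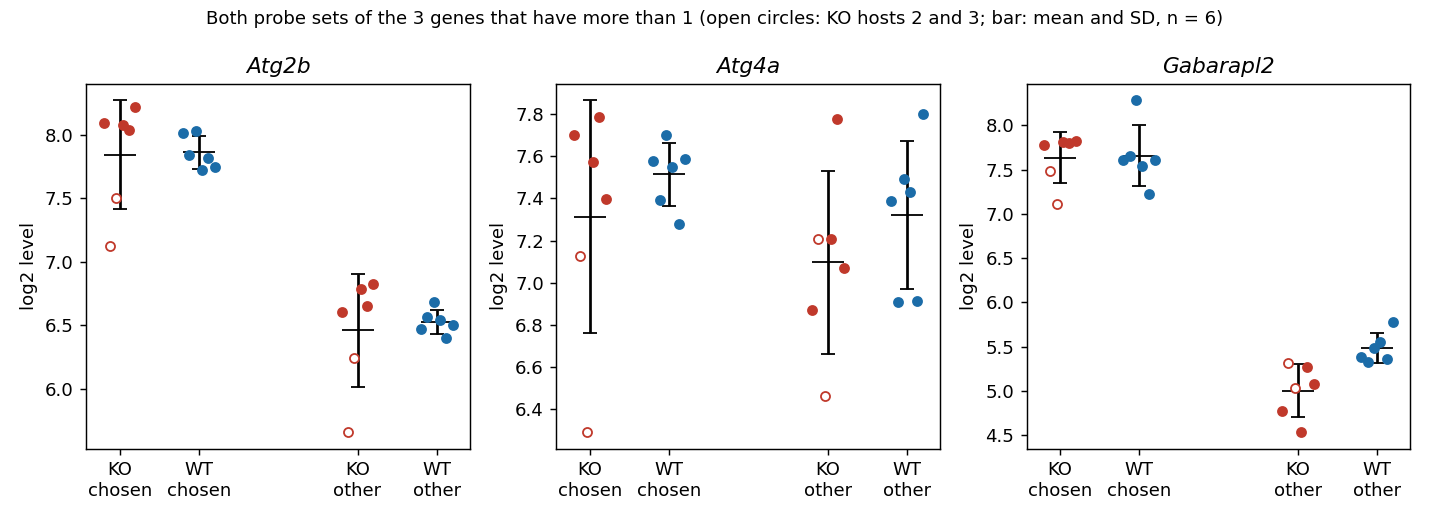
Log2 levels (vertical axis) of both probe sets of Atg2b, Atg4a and Gabarapl2 in tumours of p62 KO (red) and wild-type hosts (blue), with a point per tumour, the mean and the SD (n = 6 each); the probe set standing for the gene is on the left, and open circles are KO2 and KO3. The groups separate in the other probe set of Gabarapl2, at most 5.32 against at least 5.33, and overlap in the remaining 5.

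Further genes of the pathway were read from lists that do not overlap with the members, and 0 of them passed. Over the 12 tumours 57.2% of all probe sets were higher, and 2.39% had an unadjusted p under 0.05 (1.28% higher and 1.11% lower). Among 13 LC3 paralogues and cargo receptors, 7 were higher and 6 lower, with a median difference of 0.016, and Bnip3, a mitophagy receptor that hypoxia induces, was the 1 gene with an unadjusted p under 0.05. Bnip3 ran from 9.77 through 10.03 to 10.70 in p62 KO hosts and from 7.77 through 9.06 to 10.33 in wild-type hosts, with means 0.91 apart (SE 0.35, adjusted p = 0.9935). The autophagy receptor Tax1bp1 differed by -0.15. The 12 nucleation and membrane partners had a median of 0.012 (7 higher, 5 lower), with the WIPI relative Wdr45b at -0.23 and the scramblase Tmem41b at -0.20. The 12 fusion partners had a median of 0.016 (7 higher, 5 lower), with the HOPS subunits Vps41 at -0.26 and Vps18 at 0.08.

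Upstream of the ULK complex, 13 kinases and brakes had a median of -0.021 (3 higher, 10 lower), where 57.2% of all probe sets were higher. The catalytic AMPK subunit Prkaa1, an activator of ULK1, differed by -0.25 (SE 0.15) and the deubiquitinase Usp10 by -0.26 (SE 0.18). Among 11 other regulators of transcription the median was 0.07 (7 higher, 4 lower), with the TFEB relative Tfec at 0.23 and the autophagy repressor Zkscan3 at -0.14. The 15 measured lysosomal genes of the network that TFEB controls had a median of 0.05 with 12 higher and 3 lower. Ctsd, the lysosomal protease cathepsin D, was the 1 of them with an unadjusted p under 0.05, where 1.28% of all probe sets were higher at that level. It ran from 10.72 through 10.96 to 11.24 in p62 KO hosts and from 10.49 through 10.66 to 10.80 in wild-type hosts, with means 0.32 apart (SE 0.11, adjusted p = 0.9935), or 0.42 without KO2 and KO3. The sialidase Neu1 differed by 0.20. Without KO2 and KO3, where 45.5% of all probe sets were higher, all 15 lysosomal genes, all 13 paralogues and receptors and all 12 fusion partners were higher. The narrow arrays WT2 and WT5 remained in the wild-type group there. Over the 12 tumours the means of these lists were 8.75 to 9.35, 8.30 to 9.11 and 7.52 to 8.14, above the array medians of 6.21 to 6.44. What part level and array spread have in the counts was not tested. In the same setting 9 of the 12 nucleation and membrane partners, 10 of the 11 regulators of transcription and 6 of the 13 kinases and brakes were higher. At an unadjusted p under 0.05, where 3.49% of all probe sets were higher, there were then 6 lysosomal genes, 6 paralogues and receptors, 3 regulators of transcription, 1 fusion partner, 1 nucleation or membrane partner and 0 kinases and brakes, all higher, and 0 of them passed. With WT2 and WT5 left out as well, 47.9% of all probe sets were higher, and 2.56% at that level. All 13 paralogues and receptors, all 12 fusion partners, 14 lysosomal genes, 10 regulators of transcription and 8 nucleation and membrane partners were higher. Of the kinases and brakes 7 were higher. At that level there were 3 lysosomal genes, 3 paralogues and receptors, 1 regulator of transcription, 1 nucleation or membrane partner and 0 fusion partners, and 0 passed.

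In whole tumours, fewer cells of a type and less RNA per cell cannot be told apart. The mean of each list of host cell markers overlapped between the groups, and 0 markers passed. The mean of the 5 neutrophil markers lay between 5.42 and 6.27 in p62 KO hosts and between 5.21 and 5.62 in wild-type hosts, with all 5 higher and 4 at an unadjusted p under 0.05 (1.28% of all probe sets were higher at that level), and with 1 at that level without KO2 and KO3. Ly6g had medians of 4.525 in p62 KO and 4.152 in wild-type hosts, below the arrays' lower quartiles of 4.85 to 5.36. The wild-type median of Trem1, 4.945, lay within that range, while S100a9 and Cxcr2 had both medians above it. The highest tumour was KO3 in Ly6g and KO2 in S100a8. The 6 macrophage markers lay between 9.70 and 10.58 against 9.77 to 10.49 (5 of 6 higher), and the 7 fibroblast markers between 8.97 and 9.77 against 9.21 to 9.76 (3 of 7 higher). Without KO2 and KO3 all 6 macrophage markers were higher, 2 of them at an unadjusted p under 0.05. In that setting 5 of the 7 fibroblast markers were higher, 0 at that level. Of all probe sets 45.5% were then higher, and 3.49% at that level. All 4 adipocyte markers were higher, with a mean of 6.23 to 6.75 against 5.71 to 6.31. Without KO2 and KO3, 3 of the 4 were higher, and Adipoq differed by -0.17. The groups did not overlap in Lep, as in 0.145% of all probe sets. Its difference was 0.41 (adjusted p = 0.9935), or 0.34 without KO2 and KO3. All 3 measured B cell markers were higher, and 2 of the 3 without KO2 and KO3, where Cd79b differed by -0.013 and Ms4a1 by 0.0030. Cd79a differed by 0.63 (adjusted p = 0.9935), or by 0.57 without those tumours. Lep and Cd79a are named because of their values. Their medians in wild-type hosts, 4.51 and 4.36, lay below the arrays' lower quartiles of 4.85 to 5.36. Those in p62 KO hosts, 4.89 and 5.12, lay within that range. The part of these cells in the members' levels was not tested.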

How the data were processed

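Expression was measured on 12 single-colour arrays, 1 per tumour. The authors deposited 1 log2 intensity for each probe set, made with RMA (background correction, normalization between arrays and summary of probes), per the submitters' processing notes. Version and build are not given in the sources used here. Normalization between arrays can remove a shift shared by most genes of a tumour, although the deposited arrays still differed in median and interquartile range. Of 34760 rows, the first 6568 by identifier have no annotated gene and were treated as controls. Of the 28192 others, 21640 had 1 symbol, 1321 several and 5231 none in the platform annotation. All 35 member symbols were unchanged through their Entrez identifiers, and all 35 lay above the 25th percentile of mean levels.

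The whole table was fitted with limma 3.58.1 in R 4.3.3 (lmFit, eBayes, no covariate, two-sided), with Benjamini-Hochberg adjustment. The code was tried on simulated data with independent noise and the same spread in both groups. Such data do not cover the unequal array spread seen here. The number of arrays, not a read depth, limits the precision, and p-values cover the spread between mice. Members, lists and tests were chosen with earlier results of these data known. All members are named with their difference. The lowest, median and highest levels are given for Ulk1, Becn1, Atg9a, Atg5, Atg7, Map1lc3a, Stx17 and Tfeb and for up to 3 members per step with the smallest unadjusted p, and in each further list the 2 genes with the smallest unadjusted p are named. Alternatives were other normalizations, a filter on dim probe sets, the mean of a gene's probe sets, other variance settings, array weights, a covariate, the mouse number as a block, all rows, and omitted tumours. Some listed genes are not reported here. Promoters came from RefSeq. Plots were drawn with matplotlib 3.10.9.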

Additional observations from a re-analysis of the deposited data

Results flagged for a closer look

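Of 78 groups of 6 levels (the members, Sqstm1 and the second probe sets of 3 members), 3 had a tumour far from the other 5, and chance gives about 1 in 20. Rb1cc1 in WT3 was 10.18, with the nearest wild-type tumour at 8.79 and the lowest at 8.51. Tfeb in KO3 was 6.27, with the nearest tumour of a p62 KO host at 5.88 and the lowest at 5.74. Atg16l2 in KO3 was 6.60, with the nearest at 6.42 and the lowest at 6.33. WT3 was also the highest tumour of the brighter Gabarapl2 probe set, at 8.29, and of Becn1 and Atg12. It was the highest as well of the lysosomal gene Atp6v1h, at 9.44 against a wild-type median of 7.55. The array identifier of Atp6v1h is close to that of Rb1cc1. Without WT3 the difference of Rb1cc1 was -0.18, against -0.44 over all tumours.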

How the results depend on the processing

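Under every alternative, 0 members passed the threshold in either direction, also at an adjusted p under 0.10. Of 871 member values under alternatives, the second probe sets included, 737 kept their direction and 0 passed. Leaving out dim probe sets, eBayes with trend and robust, testing all rows and the mouse number as a block cannot change a difference. Their values are among the 737. Array weights turned 17 of the 35 members. Omitting KO hosts 2 and 3, alone or with WT hosts 2 and 5, turned 18. Averaging the probe sets of each gene gave 1 member at an unadjusted p under 0.05, lower, since the difference of Gabarapl2 was then -0.25 (adjusted p = 0.9881). At that level 2 members were higher without KO hosts 2 and 3, and 1 was higher, Atg2b, without these and WT hosts 2 and 5. The mouse number as a replicate block cannot change a difference, since each number occurs equally in both groups. With it the median was thus again -0.030, and 0 members had an unadjusted p under 0.05. Same-numbered tumours correlated between -0.549 and 0.369 in their deviations. The best partner of KO2 and of KO3 was WT5, another narrow array. Array spread may thus enter these correlations, which do not settle whether the numbers pair the tumours. The median difference of the members was -0.065 with arrays centred on a common median, -0.021 after quantile normalization, 0.042 with array weights and 0.0081 with the interquartile range as a covariate.

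The following log2 differences had the opposite sign to that over all 12 tumours, and the cause was not tested beyond the tumours left out. With arrays centred on a common median these were Atg14 -0.011, Wipi2 -0.0062, Atg2a -0.0013 and Atg4b -0.033. After quantile normalization they were Atg14 -0.032, Wipi1 0.030, Atg3 0.0051 and Atg4b -0.043. With array weights they were Ulk2 0.12, Becn1 0.080, Pik3c3 0.092, Pik3r4 0.081, Uvrag 0.040, Vmp1 0.021, Wipi1 0.12, Atg2a -0.038, Atg2b 0.19, Atg3 0.12, Atg4a 0.040, Atg4c 0.18, Atg5 0.068, Atg10 0.12, Gabarap 0.0070, Gabarapl2 0.14, Epg5 0.0062, Sqstm1 0.017 and the second Atg2b probe set 0.15. With the interquartile range as a covariate they were Ulk2 0.022, Pik3r4 0.0097, Wipi1 0.0020, Atg2b 0.051, Atg3 0.012, Atg10 0.040, Gabarapl2 0.050 and the second Atg2b probe set 0.0062. Without KO hosts 2 and 3 they were Ulk2 0.16, Becn1 0.13, Pik3c3 0.15, Pik3r4 0.12, Uvrag 0.13, Vmp1 0.077, Wipi1 0.062, Atg2a -0.065, Atg2b 0.24, Atg3 0.15, Atg4a 0.10, Atg4c 0.25, Atg5 0.16, Atg10 0.18, Gabarap 0.027, Gabarapl2 0.15, Stx17 0.034, Epg5 0.014, Sqstm1 0.053 and the second Atg2b probe set 0.19. Without these and WT hosts 2 and 5 they were Ulk2 0.13, Atg13 -0.014, Atg101 -0.012, Becn1 0.056, Pik3c3 0.033, Pik3r4 0.060, Uvrag 0.0023, Vmp1 0.034, Wipi1 0.15, Atg2a -0.072, Atg2b 0.23, Atg3 0.052, Atg4a 0.012, Atg4c 0.16, Atg5 0.053, Atg10 0.10, Gabarap 0.022, Gabarapl2 0.044, Sqstm1 0.017 and the second Atg2b probe set 0.17. With single tumours omitted, the genes that turned at least once had these ranges: Ulk1 -0.053 to 0.032, Ulk2 -0.095 to 0.079, Atg13 -0.0057 to 0.085, Becn1 -0.13 to 0.024, Pik3r4 -0.12 to 0.022, Atg14 -0.031 to 0.11, Wipi1 -0.098 to 0.036, Wipi2 -0.042 to 0.11, Atg2a -0.024 to 0.072, Atg2b -0.095 to 0.12, Atg3 -0.15 to 0.084, Atg4a -0.29 to 0.0037, Atg4b -0.063 to 0.062, Atg4c -0.24 to 0.016, Atg5 -0.26 to 0.015, Atg7 -0.038 to 0.091, Atg10 -0.092 to 0.098, Atg16l1 -0.012 to 0.13, Map1lc3a -0.070 to 0.019, Gabarap -0.063 to 0.011, Gabarapl2 -0.10 to 0.11, Epg5 -0.061 to 0.013 and the second Atg2b probe set -0.14 to 0.094. The remaining members kept their direction in these 12 omissions.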
